A study of Mus musculus with 6 samples.

Results

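The genes described here are 10 protein-coding neighbours of Tnfaip2 on mouse chromosome 12, namely Rcor1, Traf3, Amn, Cdc42bpb, Eif5, Mark3, Ckb, Trmt61a, Bag5, and Klc1. They were chosen by symbol among the genes near Tnfaip2, as rows of the deposited count table. They make up 10 of its 52636 genes and 10 of the 34 annotated protein-coding genes within 1 Mb of the edited site. Position alone does not define them, since Apopt1, a tested protein-coding gene between Bag5 and Klc1, is not a member. The question they address is whether the edit in Tnfaip2 was accompanied by altered expression of the genes beside it. RNA was sequenced from embryoid bodies (EBs), aggregates in which embryonic stem cells (ESCs) begin to differentiate, formed for 3 days in hanging drops and then differentiated for 3 days. The WT group holds 3 samples of the parental E14 mouse ESC line, and the Tnfaip2-/- group holds 3 samples of an E14 line in which CRISPR-Cas9 left a frameshift with a premature stop codon on both alleles. The Tnfaip2-/- line was grown from a single sorted clone, so that a feature of that clone and an effect of the edit cannot be told apart. The study's methods call the replicates biological, but neither they nor the labels say that each came from its own culture, and p-values measure the spread between these samples, which may in part be technical. Total counts were between 22489903 and 23804489 in the WT samples and between 21765931 and 22480962 in the Tnfaip2-/- samples.

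Cas9 cuts DNA where a guide RNA pairs with it beside a short motif, the PAM, and repair of the cut can leave small insertions or deletions. Such an edit can change the reading frame of its target and is not aimed at any other gene, but genes that lie close together on a chromosome can share enhancers and chromatin domains, which is why neighbours are inspected after editing. Tnfaip2 encodes a protein known for inducing thin membrane protrusions between cells.

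The guide is shown because distances below are counted from its cut position. It matches the forward strand of exon 2 of 12 of Tnfaip2 at chr12:111445173-111445192 (GRCm38), and the PAM is in capitals.
Tnfaip2 guide: tgttcagtgtcttcaccaaaGGG
In annotated transcripts, the guide with its PAM matched 1 gene exactly, 0 other genes with 1, 2, or 3 mismatches, and 19 genes with 4 mismatches. The members were not among these, since their closest sites had between 6 and 10 mismatches. Introns and the DNA between genes were not searched.

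Tnfaip2 itself was almost silent, with counts of 7, 4, and 7 in WT samples and 0, 2, and 2 in Tnfaip2-/- samples. The WT samples were all above the Tnfaip2-/- samples, but the gene did not pass the expression filter, and counts per gene do not show the frameshift. Exoc3l4, a relative of Tnfaip2 and of the exocyst subunit Sec6 that lies 13.5 kb to the centromere side, had counts of 1, 1, and 2 in WT samples and 1, 3, and 3 in Tnfaip2-/- samples. These overlap. The nearest tested genes were the members Cdc42bpb, 67.5 kb to the centromere side, and Eif5, 92.8 kb to the telomere side. The 4 annotated protein-coding genes between them, Tnfaip2 and Exoc3l4 included, had at most 14 counts in any sample and did not pass the filter. In a fit without the filter, Tnfaip2 had a log2 fold change of -2.05 and an adjusted p of 0.0133 with edgeR, against 0.0923 with DESeq2. Of the other 3 genes in this interval, none passed in that edgeR fit, with adjusted p between 0.0746 (Gm266) and 0.995 (Lbhd2).

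All 10 members passed the expression filter, and all 10 differed between the groups at an adjusted p of 0.05, of which 9 were lower and 1, Ckb, was higher in Tnfaip2-/- EBs. Over all 17849 tested genes the share called was 67.7%, with 33.7% called lower and 34.0% called higher. Over the 13804 protein-coding ones among them it was 74.2%, with 36.0% called lower and 38.2% called higher. The changes of the members were small. Their median log2 fold change was -0.24, against 0.0030 over all tested genes, and the median of the absolute values was 0.26, against 0.30. None of the 10 was both called and changed by at least 1.5-fold, against 24.8% of all tested genes, but Bag5, at a log2 fold change of -0.58, lay at that limit. It passed the limit with DESeq2 (-0.59), with RLE factors (-0.59), without a filter (-0.60), and without WT replicate 1 (-0.59), WT replicate 3 (-0.61), or Tnfaip2-/- replicate 1 (-0.62), and Amn passed it without WT replicate 3 (-0.62). In each of the 10 the 3 samples of a group lay on the same side of the 3 of the other, as in 69.4% of all tested genes. In a test against a fold change of 1.5 (edgeR's glmTreat), 0 members passed, and 0 had an unadjusted p below 0.05. In bulk samples, fewer cells that express a gene and less RNA per cell cannot be told apart.

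Markers of the cell types that EBs can hold also differed between the groups, and their part in the changes of the members was not tested. Of 8 primitive streak and mesoderm markers, 7 were tested and all 7 were lower, with a summed level of 90.1, 89.2, and 88.4 counts per 1000000 counts (CPM) in WT EBs and 21.7, 19.1, and 22.6 CPM in Tnfaip2-/- EBs. T was the most abundant in WT EBs, at 34.6 CPM, but was at 0.134 CPM in Tnfaip2-/- EBs, where Eomes led, and Msgn1 was at 0 in all Tnfaip2-/- samples. Of these calls that of Tbx6 (adjusted p = 0.0368) was lost with DESeq2 (adjusted p = 0.196), when scaled to chromosome 12 (adjusted p = 0.181), and without WT replicate 1 or 3 or Tnfaip2-/- replicate 1 or 2 (adjusted p between 0.0874 and 0.194). Of 6 neural ectoderm markers, 5 were lower and Otx2 was not called. When scaled to chromosome 12, Nes lost its call (adjusted p = 0.0914) and Otx2 was called higher. That scaling, described below, shifts every gene by 0.19 on the log2 scale. Under it 50.4% of all tested genes were called higher and 20.3% lower. The summed level of the neural ectoderm markers, led by Otx2, was 335, 330.4, and 327 CPM in WT EBs and 270.2, 268, and 270.3 CPM in Tnfaip2-/- EBs. The 8 pluripotency markers were split, with 5 higher and 3 lower. Pou5f1, the most abundant in WT EBs, fell from 760 to 419 CPM, and Zfp42, which rose from 229 to 428 CPM, led in Tnfaip2-/- EBs. The markers summed to between 1692 and 1711 CPM in WT EBs and between 1723 and 1730.3 CPM in Tnfaip2-/- EBs. Of 6 trophoblast markers 3 were higher and 1, Cdx2, was lower, while Elf5 and Gata3 were not tested. The sum of 23.1 to 25.8 CPM in WT EBs against 172 to 175 CPM in Tnfaip2-/- EBs was mostly Tfap2c (21.7 against 171 CPM). The others were low, as Hand1 rose from 0.364 to 1.24 CPM, Krt7 rose from 0.581 to 1.41 CPM, and Cdx2 fell from 1.57 to 0.0451 CPM. Fibroblast markers were low in both groups, with 3 of 8 lower and 0 higher, sums of 14.6 to 16.6 CPM and 10.5 to 10.8 CPM, Pdgfra most abundant, and Lum and Postn at 0 in all Tnfaip2-/- samples.

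**Figure D1:**
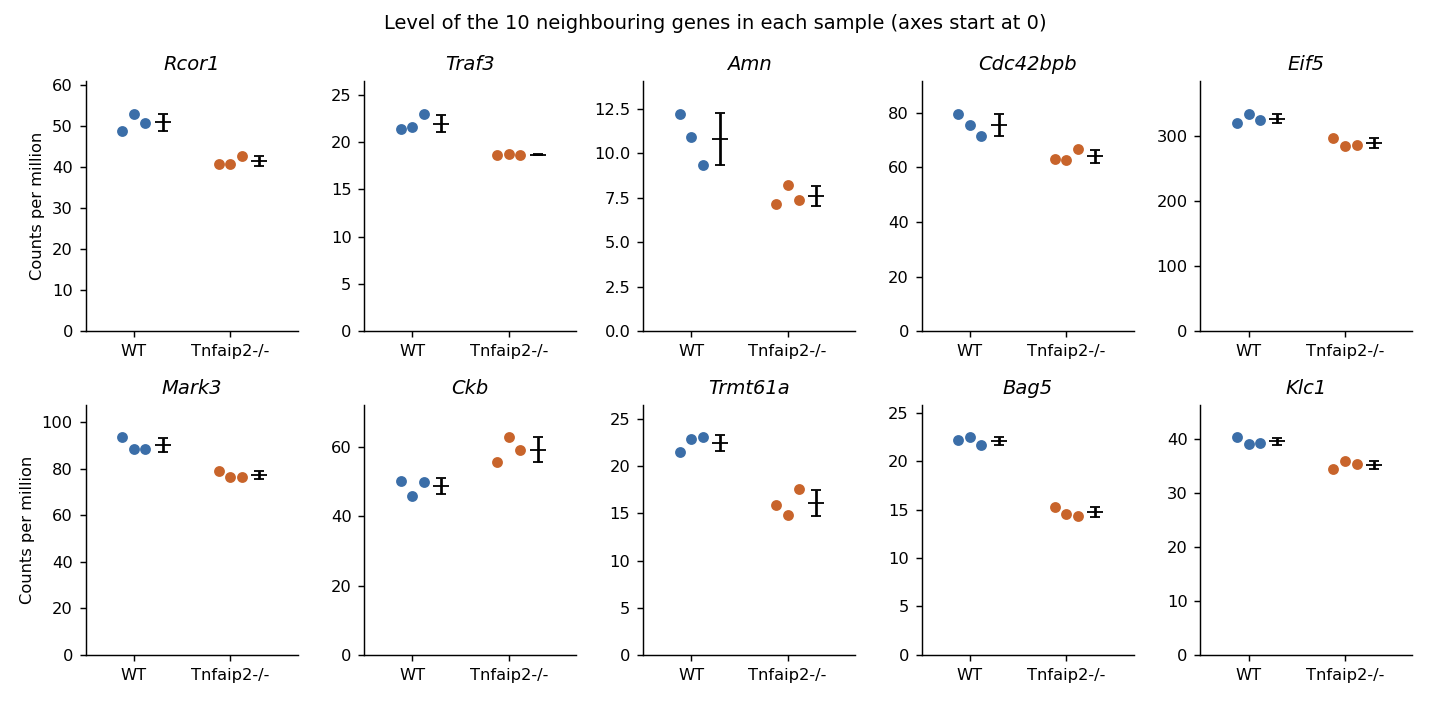
Level of each of the 10 neighbouring genes in CPM, with a point for each of the 3 WT and 3 Tnfaip2-/- samples and the mean ± SD beside them. The 3 Tnfaip2-/- points lie below the 3 WT points in every panel except Ckb, where they lie above.

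Among the members that act in the nucleus or in signalling, Rcor1 encodes CoREST, the scaffold that joins the demethylase LSD1 and histone deacetylases into a repressor complex. Its level was 48.9, 53.1, and 50.9 CPM in WT EBs and 40.8, 40.9, and 42.8 CPM in Tnfaip2-/- EBs. Every Tnfaip2-/- sample was below every WT sample, and the level fell by 18.6%, which is -0.30 ± 0.0434 on the log2 scale (± standard error, here and below; edgeR, adjusted p = 6.49e-08). Of the 12 other genes listed for the CoREST complex, all tested, 7 were lower and 2 were higher, against 33.7% and 34.0% of all tested genes. The list also holds the paralogues Rcor2 and Rcor3 and the factor Rest. Under the scaling to chromosome 12 (described below), 20.3% of all tested genes were lower and 50.4% were higher. Of the 12 listed genes, 4 were then lower and 6 were higher. Of these, Hdac1 (log2 fold change -0.07) lost its call with upper quartile factors (adjusted p = 0.113) and library size only (adjusted p = 0.134) and turned to 0.11 when scaled to chromosome 12, where Hmg20b (-0.046, adjusted p = 0.418) and Rest (0.010, adjusted p = 0.752) lost theirs. Zmym3 (0.10) lost its call with DESeq2 (adjusted p = 0.227), RLE factors (adjusted p = 0.0505), and no filter (adjusted p = 0.147), and without WT replicate 2 or 3 or Tnfaip2-/- replicate 1 or 3 (adjusted p between 0.0785 and 0.352). Kdm1a, which encodes LSD1 and is the direct partner of Rcor1, rose, with a log2 fold change of 0.30, and Hdac2 fell by 0.58 on the log2 scale. Rcor2, a paralogue of Rcor1 expressed at 56.8 CPM per 1000 bases of exon (RPKM) in WT EBs against 8.97 RPKM for Rcor1, also fell, with a log2 fold change of -0.27.

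Traf3 encodes an adaptor that keeps the kinase NIK unstable and so restrains the alternative NF-kB pathway. It was measured at 21.3, 21.5, and 23 CPM in WT EBs and at 18.6, 18.7, and 18.7 CPM in Tnfaip2-/- EBs. The groups did not overlap, and the log2 fold change was -0.23 ± 0.0593 (adjusted p = 0.000584). Of 10 genes around NIK, 6 were higher and 0 were lower, where edgeR's test at an adjusted p of 0.05 was used. Over all tested genes 67.7% were called, 34.0% higher and 33.7% lower. Map3k14, which encodes NIK, rose by 0.81 on the log2 scale, from a low level of 1.28 to 1.99 CPM in WT EBs to between 2.46 and 3.01 CPM. Traf1 and Traf5, 2 paralogues of Traf3, had the largest changes of the list, with log2 fold changes of 2.30 and 1.54. Both were expressed at a few CPM at most. Traf2 (log2 fold change 0.07, adjusted p = 0.274), Traf6, Nfkb2, and Relb did not pass the test. When scaled to chromosome 12, Traf2, Traf6, and Relb were called higher, so that 9 of the 10 were higher and 0 were lower.

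Amn encodes amnionless, the membrane anchor of the cubilin receptor of visceral endoderm and kidney. Its level was 12.2, 10.9, and 9.32 CPM in WT EBs and 7.17, 8.22, and 7.35 CPM in Tnfaip2-/- EBs. It had the widest spread in WT EBs relative to its mean of the 10 members, with 10.8 ± 1.45 CPM (SD, n = 3), and still the groups did not overlap. The log2 fold change was -0.51 ± 0.0930 (adjusted p = 4.87e-06). Among the 4 genes of the cubilin receptor, Cubn, its ligand-binding partner, was at 51.3 CPM in WT EBs and 48.1 CPM in Tnfaip2-/- EBs (log2 fold change -0.09, adjusted p = 0.0458), Lrp2 fell by 0.60 on the log2 scale, Dab2 fell by 0.17, and Lrpap1 rose by 0.52. The call of Cubn was lost with DESeq2 (adjusted p = 0.136), with upper quartile factors (adjusted p = 0.150), with library size only (adjusted p = 0.170), with the stricter filter (adjusted p = 0.0598), and without WT replicate 1 or 2 or Tnfaip2-/- replicate 2 or 3 (adjusted p between 0.0939 and 0.125). Scaled to chromosome 12, Cubn was at 0.09 (adjusted p = 0.0447) and Dab2 at 0.015 (adjusted p = 0.782). Since Amn marks extraembryonic endoderm, the 12 markers of that tissue are given beside it. Of these, 7 were lower and 3 were higher, among them Sox17, whose call was lost with DESeq2 (adjusted p = 0.116) and without WT replicate 3 or Tnfaip2-/- replicate 3 (adjusted p = 0.180 and 0.111), while 5 were lower and 5 were higher when scaled to chromosome 12, and their summed level was 308, 317, and 314 CPM in WT EBs and 294, 288, and 293 CPM in Tnfaip2-/- EBs. Lrp2 was the most abundant marker and none was at 0 in all samples of a group. The sum holds opposite changes, as Lrp2 fell from 157 to 104 CPM and Lama1 rose from 28.8 to 75.5 CPM. Afp (log2 fold change -4.17, from 0.902 CPM in WT EBs), Apoa1 (-2.59), Ttr (-1.95), and Foxa2 (-1.16) were lower. Lama1 (1.39) and Sox7 (0.64) were higher. The part of extraembryonic endoderm cells in the change of Amn was not tested.

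The next members encode proteins of the cytoskeleton. Cdc42bpb encodes MRCK beta, a kinase that acts on actomyosin downstream of Cdc42. It was at 79.7, 75.7, and 71.6 CPM in WT EBs and at 62.9, 62.6, and 66.9 CPM in Tnfaip2-/- EBs, again without overlap, and fell by 15.2% (log2 fold change -0.24 ± 0.0393, adjusted p = 8.00e-07). An antisense gene, A230087F16Rik, covers 13.7% of its exon bases, and reads of the 2 cannot be separated in counts without strand. Its paralogues Cdc42bpa and Cdc42bpg rose, with log2 fold changes of 0.45 and 0.97. The other 2 genes of this list of 4, Dmpk and Cdc42, did not pass the test. Dmpk was at a log2 fold change of -0.18 (adjusted p = 0.0656). Cdc42 was measured at log2 fold change -0.04 (adjusted p = 0.145), and at 0.15 (adjusted p = 8.29e-07) when scaled to chromosome 12.

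Mark3, a kinase that phosphorylates microtubule-associated proteins, was at 93.6, 88.7, and 88.4 CPM in WT EBs and at 79.3, 76.4, and 76.5 CPM in Tnfaip2-/- EBs. The highest Tnfaip2-/- sample was below the lowest WT sample, and the log2 fold change was -0.22 ± 0.0350 (adjusted p = 3.40e-07). Its 3 paralogues Mark1, Mark2, and Mark4 moved the other way and were all higher, with log2 fold changes of 0.44, 0.35, and 0.69. Klc1, a light chain of the microtubule motor kinesin-1, had, with Eif5, one of the 2 smallest changes of the members. It went from 40.3, 39.0, and 39.3 CPM in WT EBs to 34.4, 35.9, and 35.4 CPM in Tnfaip2-/- EBs. It fell by 11% (log2 fold change -0.17, adjusted p = 0.00121). Of the 6 other kinesin-1 genes, 4 were higher and 1, Klc4, was lower, against 34.0% and 33.7% of all tested genes. The heavy chain Kif5b, the most abundant partner of Klc1 per length, was at a log2 fold change of 0.08 (adjusted p = 0.0273). With DESeq2 the calls of Kif5b (adjusted p = 0.148) and Kif5a (adjusted p = 0.206) were lost, as they were without a filter (adjusted p = 0.149 and 0.0893). That of Kif5b was also lost without any 1 sample except Tnfaip2-/- replicate 3 (adjusted p between 0.0539 and 0.412), and that of Kif5a without WT replicate 1 or 3 or Tnfaip2-/- replicate 1 or 3 (adjusted p between 0.0525 and 0.132).

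Eif5 and Trmt61a act in protein synthesis. Eif5 encodes the factor that triggers GTP hydrolysis on the initiation complex at the start codon, and was the most abundant member, at 320.4, 334.1, and 324.5 CPM in WT EBs and 297.3, 283.9, and 285.9 CPM in Tnfaip2-/- EBs. The groups were apart, and the level fell by 11.4% (log2 fold change -0.17 ± 0.0261, adjusted p = 9.53e-08). Of 8 genes that work with it in start codon selection, 5 were higher and 2 were lower, against 34.0% and 33.7% of all tested genes. When scaled to chromosome 12, 8 were higher and 0 were lower, against 50.4% and 20.3% of all tested genes. Eif1, which opposes Eif5 at the start codon, rose by 0.18 on the log2 scale, and Eif2s1 and Eif2s3x, 2 subunits of eIF2, had log2 fold changes of -0.07 each. These last calls were lost with upper quartile factors (adjusted p = 0.179 and 0.169), with library size only (adjusted p = 0.202 and 0.197), and without Tnfaip2-/- replicate 2 or 3 (adjusted p between 0.0507 and 0.134), that of Eif2s1 also without WT replicate 3 (adjusted p = 0.116) and with DESeq2 (adjusted p = 0.0569). Scaled to chromosome 12, both were higher, at 0.12.

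Trmt61a encodes the catalytic subunit of the methyltransferase that makes 1-methyladenosine in tRNA. It was at 21.5, 22.9, and 23.1 CPM in WT EBs and at 15.8, 14.8, and 17.6 CPM in Tnfaip2-/- EBs. All Tnfaip2-/- samples were below the WT samples, and the level fell by 28.4% (log2 fold change -0.48 ± 0.0641, adjusted p = 7.34e-09). Trmt6, the other subunit of the same enzyme, rose by 0.37 on the log2 scale. The gene listed as Trmt61b, the symbol of a mitochondrial relative, is annotated in GENCODE M21 as an antisense RNA and not as a protein-coding gene, so that its counts are not read as those of the enzyme. It fell from between 4.32 and 5.07 CPM to between 1.74 and 2.68 CPM, a log2 fold change of -1.05.

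Ckb and Bag5 serve the energy supply and protein folding. Ckb encodes the brain-type creatine kinase, and was the only member that rose, from 50.1, 45.9, and 49.9 CPM in WT EBs to 55.7, 62.7, and 59.2 CPM in Tnfaip2-/- EBs. The lowest Tnfaip2-/- sample was above the highest WT sample, and the log2 fold change was 0.28 ± 0.0437 (adjusted p = 2.13e-07). In the creatine pathway 2 of 6 genes were nearly silent and not tested, Ckm and Ckmt2. Of the others Ckmt1 and Gatm rose, with log2 fold changes of 0.57 and 0.35, and Gamt was not called (-0.18, adjusted p = 0.413). Slc6a8, the creatine transporter, fell by 0.12, but was at 0.07 (adjusted p = 0.101) when scaled to chromosome 12. Bag5, a co-chaperone that binds HSP70, had the largest change of the members with TMM scaling and all samples, but not when scaled to chromosome 12 (-0.40, against 0.47 for Ckb) or without WT replicate 3 (-0.61, against -0.62 for Amn). It was at 22.2, 22.5, and 21.7 CPM in WT EBs and at 15.3, 14.5, and 14.4 CPM in Tnfaip2-/- EBs, and fell by 33.3% (log2 fold change -0.58 ± 0.0621, adjusted p = 1.94e-11). A larger absolute change was seen in 25.6% of all tested genes. Among 5 other BAG genes, Bag1 and Bag3 were higher and Bag4 and Bag6 were lower, of which Bag4 lost its call with DESeq2 (adjusted p = 0.0675) and with library size only (adjusted p = 0.0554) and was at 0.06 when scaled to chromosome 12.

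**Figure D2:**
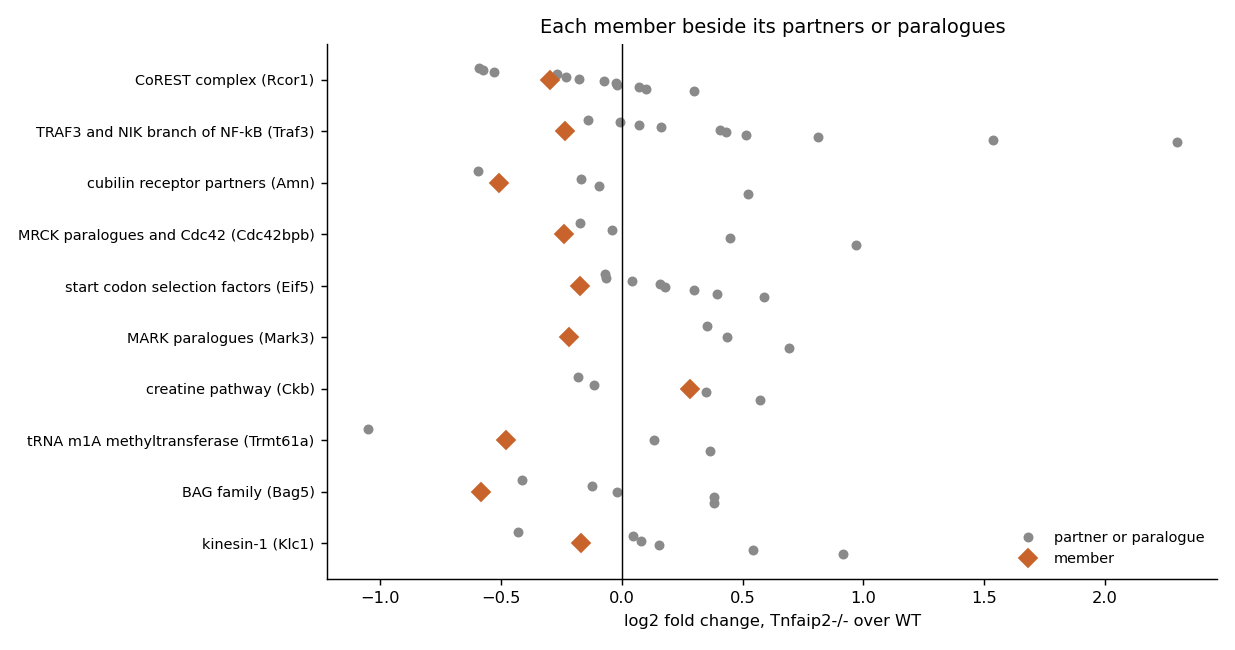
Log2 fold change of each member (diamond) beside the tested genes of its list of partners or paralogues (points), 1 row for each list. Trmt61b, an antisense RNA, is drawn but not counted. Of the other 58 tested partners, 29 were higher and 16 were lower, with a median log2 fold change of 0.09, against 34.0% higher and 33.7% lower over all tested genes. Scaled to chromosome 12, 42 were higher and 7 were lower, against 50.4% and 20.3%.

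Per length, Eif5 was the highest member in WT EBs, at 47.9 ± 1.03 RPKM (SD, n = 3), followed by Ckb at 16.8 ± 0.826 RPKM. The next 6 levels, from Cdc42bpb at 10.3 RPKM to Bag5 at 8.82 RPKM, were close, and no 2 neighbours in that order differed by more than the sum of their SDs. Amn at 5.87 RPKM and Traf3 at 2.99 RPKM were lowest. In Tnfaip2-/- EBs the order of the levels was the same except that Rcor1, at 7.30 RPKM, was above Trmt61a, at 6.62 RPKM, a step smaller than the sum of their SDs.

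Beside the position of the genes, the changes ran as follows. The 4 members on the centromere side were all lower, with a median log2 fold change of -0.27, and of the 6 on the telomere side 5 were lower, with a median of -0.20. Cdc42bpb and Eif5, the nearest, changed less than Bag5, 264 kb from the cut. Ckb, the only member that rose, lies between Mark3 and Trmt61a, both lower.

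Of the 24 other protein-coding genes within 1 Mb, 17 were tested, of which 8 were lower, 6 were higher, and 3 did not pass the test. Their median log2 fold change was -0.09, and it was between -0.13 and -0.02 when each sample in turn was left out, closest to 0 without WT replicate 2. Scaled to chromosome 12 the median turned to 0.097, with 6 genes lower and 8 higher. None of the tested genes within 1 Mb, member or not, reached an absolute log2 fold change of 1. Zfyve21, Apopt1, and Ppp1r13b are singled out here after their values were seen. Zfyve21 was higher, a call lost with DESeq2 (adjusted p = 0.0684) and without WT replicate 3 (adjusted p = 0.0598). Apopt1 has its annotated start 4 bp from that of Bag5 on the opposite strand. Its level was 15.2, 15.6, and 16.3 CPM in WT EBs and 11.05, 10.4, and 9.29 CPM in Tnfaip2-/- EBs. Both of these divergent genes fell, by 0.62 for Apopt1 and by 0.58 for Bag5 on the log2 scale. Gm15995 on the same strand and Gm15996 on the opposite strand cover 14.5% of the exon bases of Apopt1, and their reads may not be separated from its own. Ppp1r13b, 383 kb from the cut, rose most, to a log2 ratio of 0.78 ± 0.0893 (adjusted p = 1.82e-10).

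**Figure D3:**
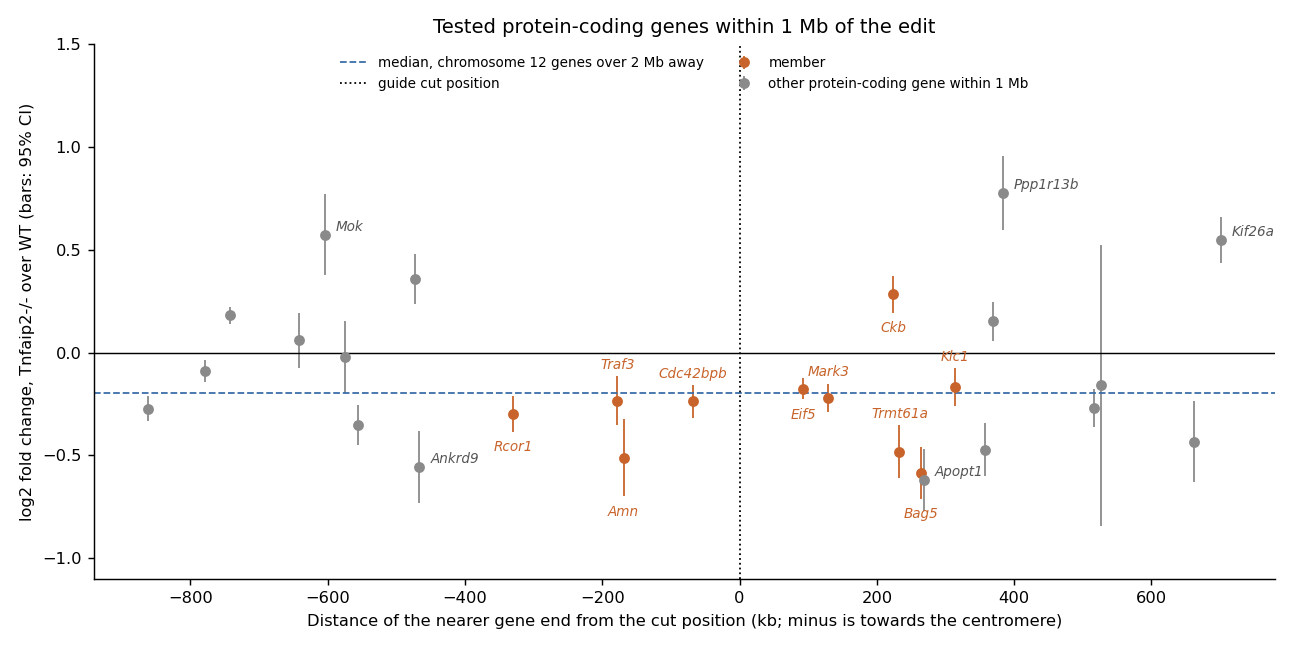
Log2 fold change with its 95% confidence interval against the distance from the cut position, for the 10 members and the 17 other tested protein-coding genes within 1 Mb; the dashed line is the median of chromosome 12 genes over 2 Mb away. Lower and higher genes are found on both sides, and the nearest tested gene lies 67.5 kb from the cut.

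Genes of chromosome 12 far from the edit were also lower. Over the 419 tested protein-coding genes more than 2 Mb from the cut, 54.9% were called lower and 22.2% higher, against 36.0% and 38.2% of all tested protein-coding genes. The median log2 fold change of the 419 was -0.20, so that the median of the members was close to that of the chromosome. Of the 10 members, 7 were below that median, and for 5 the 95% confidence interval contained it. Bins of 20 or more genes had medians of -0.34 at 5 to 10 Mb, -0.21 at 10 to 20 Mb, -0.05 at 20 to 40 Mb, and -0.24 beyond 40 Mb on the centromere side, and -0.16 at 1 to 2 Mb on the telomere side. Bins of fewer than 20 genes ranged more widely. On the centromere side the 2 genes at 1 to 2 Mb had a median of -1.42 and the 12 at 2 to 5 Mb, of which 10 were lower, one of -0.60, and on the telomere side the 4 at 2 to 5 Mb had a median of -0.17 and the 7 at 5 to 10 Mb one of -0.97. Within 1 Mb, members included, the 4 bins held 4 to 10 genes each, with medians between -0.27 and -0.021.

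**Figure D4:**
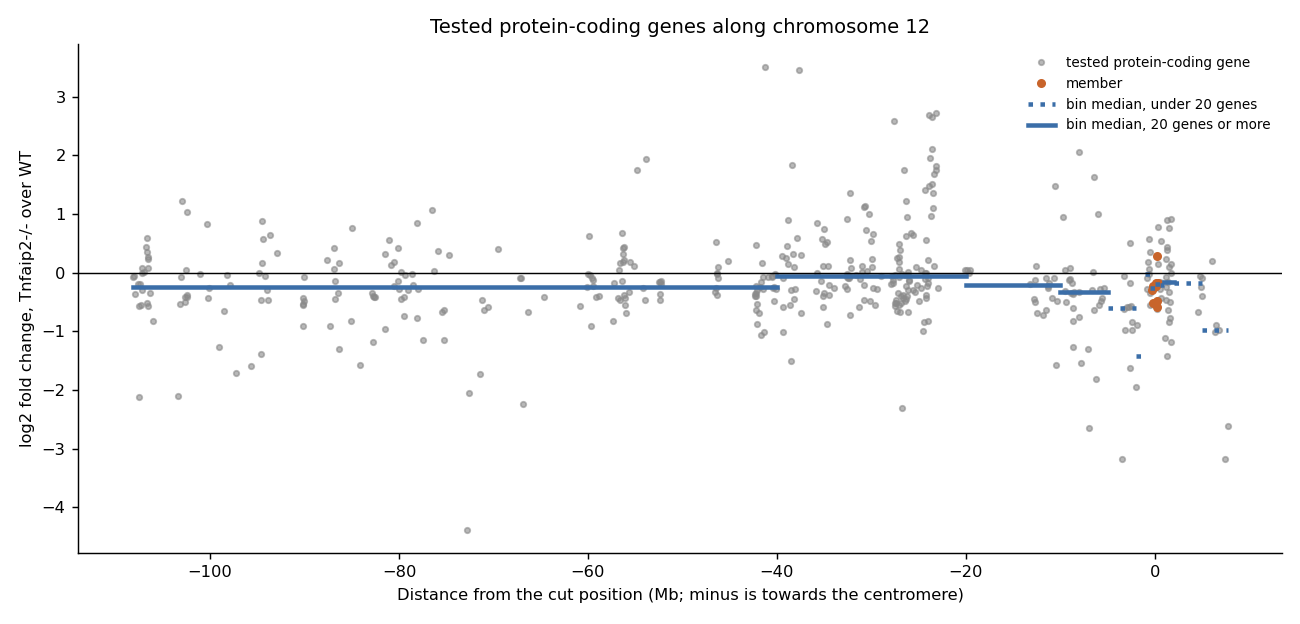
Log2 fold change of each of the 469 tested protein-coding genes of chromosome 12 against its distance from the cut, with the 10 members in colour and bin medians as lines (dotted where a bin holds fewer than 20 genes). The members lie within the range of the other genes, and bin medians are below 0 along the whole chromosome.

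Chromosome 12 was not alone in this. Of 20 chromosomes, 6 had a median log2 fold change below 0 over their tested protein-coding genes, and chromosome 12, at -0.20, was number 5 from the lowest, after chromosomes 17, 3, 5, and 10, with medians between -0.29 and -0.24. The other 14 had medians between 0.0016 and 0.16. These medians rest on the TMM scaling, and the reason for the differences between chromosomes was not tested.

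**Figure D5:**
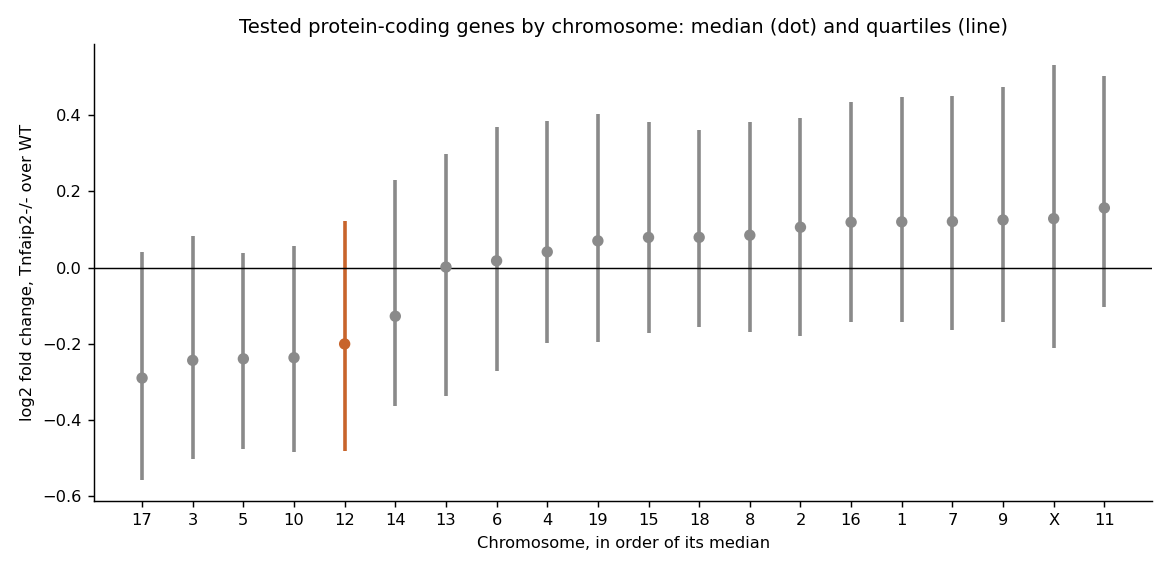
Median (dot) and quartiles (line) of the log2 fold change over the tested protein-coding genes of each chromosome, in order of the median, with chromosome 12 in colour. Chromosomes 17, 3, 5, 10, and 12 lie between -0.29 and -0.20, and chromosome 11 is highest at 0.16.

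When the samples were instead scaled so that the median of the 637 tested chromosome 12 genes of any biotype over 2 Mb away, and not of the 419 protein-coding ones alone, was 0, a shift of 0.19 on the log2 scale for every gene, 5 of the 10 members still differed. Under this scaling 70.6% of all tested genes were called, 20.3% lower and 50.4% higher. Bag5 (log2 fold change -0.40, adjusted p = 2.28e-07), Amn (-0.32), Trmt61a (-0.30), and Rcor1 (-0.11, adjusted p = 0.0217) were called lower than this median, and Ckb was called higher (0.47, adjusted p = 3.38e-13). The median entered as a fixed value, so these p-values do not measure the spread of chromosome 12 genes. Before this scaling the quartiles of the 419 protein-coding ones were -0.477 and 0.117. Rcor1 (-0.297) lay between these quartiles, Bag5 (-0.585), Amn (-0.511), and Trmt61a (-0.482) below, and Ckb (0.282) above. Traf3, Cdc42bpb, Mark3, Eif5, and Klc1 no longer passed the test, with log2 fold changes between -0.05 and 0.02, and the signs of Eif5 and Klc1 turned, as this shift makes them do for any gene between -0.19 and 0, at values not told apart from 0 (adjusted p = 0.717 and 0.738).

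The promoters of the members were read from RefSeq (GRCm38.p6) as windows from 250 bases before to 50 bases after an annotated start, and all 10 genes matched, with 12 windows. All were rich in CpG, with 15 to 59 CpG in each window and a GC content of 62.3% to 84.0%, against medians of 7 and 52.7% over all 32851 windows. Of 6 motifs searched on both strands, which were chosen after the values were seen, TATAAA was found in Ckb alone (13.6% of all windows hold it), TGACGTCA in Trmt61a and Klc1 (1.79%), CACGTG in Amn and Trmt61a (7.15%), and CCAAT in Rcor1, Amn, Eif5, Mark3, and Ckb (37.4%). The YY1 motif (0.545%) and the NRF1 motif (0.971%) were in none. The 250 bases before the start are shown for Ckb, the member that rose, at chr12:111672339-111672588 on the reverse strand with TATAAA in capitals, and for Trmt61a, its neighbour that fell, at chr12:111677855-111678104 on the forward strand with TGACGTCA in capitals.
Ckb promoter: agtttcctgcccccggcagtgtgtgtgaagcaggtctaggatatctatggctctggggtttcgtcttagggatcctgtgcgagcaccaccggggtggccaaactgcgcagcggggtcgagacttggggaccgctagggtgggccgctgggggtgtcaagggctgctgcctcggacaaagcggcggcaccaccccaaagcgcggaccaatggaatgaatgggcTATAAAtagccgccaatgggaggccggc
Trmt61a promoter: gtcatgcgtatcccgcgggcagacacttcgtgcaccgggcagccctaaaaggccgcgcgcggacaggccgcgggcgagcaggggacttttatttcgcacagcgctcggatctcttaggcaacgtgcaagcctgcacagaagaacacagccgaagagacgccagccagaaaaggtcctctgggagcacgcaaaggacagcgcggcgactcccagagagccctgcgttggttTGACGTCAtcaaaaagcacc
The TATAAA of Ckb begins 28 bases before the start, and the TGACGTCA of Trmt61a begins 20 bases before it. A match describes these letters in the window, and is not a bound site.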

How the data were processed

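The authors mapped reads of TruSeq RNA v2 libraries to GRCm38 with TopHat2 2.1.0, counted uniquely mapped reads per Ensembl gene with featureCounts 1.5.0, and deposited raw counts; whether counting used strand is not stated. Of 52636 gene identifiers, 52489 matched GENCODE M21 (GRCm38), which gave positions and exon lengths. Groups were taken from the labels. Counts were scaled by TMM, filtered with filterByExpr at its defaults, and tested with edgeR 4.0.16 (R 4.3.3, robust quasi-likelihood F test, 2-sided) over 17849 genes, adjusted after Benjamini and Hochberg at a threshold of 0.05. DESeq2 1.42.0 was an alternative, beside other scalings, filters, windows, and samples left out. The procedure was tested on simulated data. Within each genotype, replicates differed by more than counting noise (chi-square per degree of freedom 1.32 to 1.89).

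The genes named are every member; Tnfaip2 and Exoc3l4; tested protein-coding genes within 1 Mb with an absolute log2 fold change of at least 1 and the nearest on each side; and, from the lists of partners and paralogues, those with an absolute log2 fold change of at least 1 and the most direct partner of each member. Other genes are named as examples chosen after their values were seen. Members and lists were chosen with earlier results of these data known.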

Additional observations from a re-analysis of the deposited data

How the results depend on the processing

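All 10 members kept their direction and their call with DESeq2, RLE factors, upper quartile factors, library size only, no filter, a stricter filter, the legacy fit, an adjusted p of 0.01, and the replicate block. Without each sample in turn all 10 were called, and their median log2 fold change was between -0.27 and -0.23, that of the other genes within 1 Mb between -0.13 and -0.018, and that of chromosome 12 genes over 2 Mb away between -0.22 and -0.17. Scaled to chromosome 12, 5 members were called and the log2 fold changes of Eif5 and Klc1 were 0.011 and 0.018, not told apart from 0 (adjusted p = 0.717 and 0.738), and the medians were -0.050 for members, 0.097 for the other genes within 1 Mb, and -0.012 for the chromosome; this scaling adds the same shift to all genes, which fixes these turns of sign. The median of the members was -0.21 with upper quartile factors and with library size only, and -0.25 without a filter; that of the chromosome was -0.17, -0.17, and, with the stricter filter, -0.22; that of the other genes was -0.050 with the stricter filter. Tested against a fold of 1.5, 2798 genes passed, with 0 members and 1 of the other genes. Windows of 0.5 and 2 Mb held 6 and 33 other genes called, with a median of -0.16 in both.

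With the replicate block, 11841 genes were called and all 10 members, of which Bag5 then passed a change of 1.5-fold, and of the partners Cubn, Eif2s1, Eif2s3x, and Zmym3 were not called (adjusted p = 0.0672, 0.0654, 0.0747, and 0.0559). Same-numbered samples correlated at -0.056 to -0.054 after removal of group means, and differently numbered ones at 0.017 to 0.039, so that the numbers were not taken as pairs.

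Each genotype is 1 line, and no second clone was measured here. The genes nearest to the cut did not pass the expression filter, and the sequence of the edited alleles, copy number, and the genome outside transcripts were not examined. The replicates vary little (biological coefficient of variation 0.0215), and a difference as small as that of Klc1 passed the test.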

Other observations

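Beyond the 1 Mb window, genes of the imprinted Dlk1-Dio3 cluster, which are expressed from 1 parental chromosome, lie 1.1 to 2 Mb to the centromere side of the cut and were looked at after the values of the region were seen. Meg3, known as a maternally expressed RNA, had 5513, 5433, and 5509 counts in WT EBs and 2737, 2582, and 2679 in Tnfaip2-/- EBs. All 3 Tnfaip2-/- samples were below the WT samples, and log2(Tnfaip2-/-/WT) was -1.0. Rian and Mirg, known as such too, had log2 fold changes of -0.96 and -0.74, and Dlk1 and Rtl1, known as paternally expressed, of -1.95 and -0.89. Dio3 had 3 to 5 counts in each sample and was not tested. Counts per gene do not show which parental allele an RNA came from.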
